A study of Homo sapiens with 6 samples.

Results

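Metallothionein genes and 3 genes of cellular zinc sensing were followed in SW480 cells, an established human cell line that was derived from a colorectal adenocarcinoma. The set was given by name: the metallothionein genes MT1E, MT1F, MT1G, MT1H, MT1M, MT1X and MT2A, the zinc exporter SLC30A1, the transcription factor MTF1 and the zinc importer SLC39A14. All 10 were found by symbol among the 60664 genes of the table. RNA sequencing compared 3 libraries from cells given Amuc_0904 with 3 libraries from cells given buffer, all labelled wild type (WT), and the labels give no dose and no exposure time. Amuc_ is the prefix of gene identifiers in Akkermansia muciniphila, a bacterium of the gut. What was added to the cells is not described further. Nor do they say that replicates came from separate cultures. The p-values therefore refer to the spread between these libraries, which may be technical.

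Metallothioneins are small, cysteine-rich proteins of the cytosol that bind zinc, copper and cadmium ions. MTF1 is the zinc sensor of the nucleus: it binds zinc through its zinc fingers and then binds metal response elements, short motifs in the promoters of metallothionein genes and of SLC30A1. SLC30A1 carries zinc out of the cell across the plasma membrane, and SLC39A14 (ZIP14) carries zinc, iron and manganese into it. In intestinal epithelium and in liver, metallothionein and ZIP14 transcripts are known to respond to inflammatory cytokines and glucocorticoids as well as to metals.

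The metallothionein genes lie side by side on chromosome 16 (GRCh38, GENCODE 29), from MT4 at 56565049 to MT1X, which ends at 56684196. MT2A (ENSG00000125148) spans 56608199 to 56609497, MT1E (ENSG00000169715) spans 56625475 to 56627112, MT1F (ENSG00000198417) spans 56657694 to 56660698 and MT1X (ENSG00000187193) starts at 56682424. MT1X overlaps 1 annotated gene on its own strand, AC026461.1, so its value can hold reads from that neighbour. MT2A, MT1E and MT1F overlap none. MTF1 (ENSG00000188786) lies on chromosome 1 from 37809567 to 37859620 and SLC30A1 (ENSG00000170385) on chromosome 1 from 211571568 to 211578742. MTF1 overlaps 1 gene on the other strand, and the strand protocol is not given in the sources used here.

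RefSeq promoters (GRCh38.p14) were matched for 5 of the 10 genes, MT2A, MT1X, MT1H, SLC30A1 and MTF1. The 250 bases before the start of 3 metallothionein genes are shown because they carry the element that links zinc to these genes, and because MT2A was the most abundant metallothionein transcript while MT1H was listed at 0. Capitals mark each match, on either strand, to the 7-base core of the metal response element, TGCACNC or TGCGCNC.
MT2A, chr16:56608334-56608583, plus strand: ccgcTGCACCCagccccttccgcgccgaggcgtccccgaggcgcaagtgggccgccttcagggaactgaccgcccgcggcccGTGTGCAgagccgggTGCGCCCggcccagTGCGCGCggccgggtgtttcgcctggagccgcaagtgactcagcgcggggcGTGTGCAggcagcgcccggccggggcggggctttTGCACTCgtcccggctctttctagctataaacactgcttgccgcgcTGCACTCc
MT1X, chr16:56682220-56682469, plus strand: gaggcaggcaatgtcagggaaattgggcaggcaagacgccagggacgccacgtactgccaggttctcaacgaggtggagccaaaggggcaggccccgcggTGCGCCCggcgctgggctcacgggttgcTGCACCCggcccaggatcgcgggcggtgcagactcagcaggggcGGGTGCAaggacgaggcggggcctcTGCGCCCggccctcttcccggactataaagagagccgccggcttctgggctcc
MT1H, chr16:56669564-56669813, plus strand: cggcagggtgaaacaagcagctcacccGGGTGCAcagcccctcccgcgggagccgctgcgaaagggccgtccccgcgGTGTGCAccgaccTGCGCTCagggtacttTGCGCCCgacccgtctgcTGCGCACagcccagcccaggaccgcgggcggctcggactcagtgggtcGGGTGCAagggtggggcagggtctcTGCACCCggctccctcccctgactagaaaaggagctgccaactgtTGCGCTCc

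The MT2A window held 7 matches, the MT1X window 4 and the MT1H window 8, none of which overlapped another. Among 35114 RefSeq windows of the same length, 24.8% held at least 1 match, 0.208% held at least 4 and 0.0228% held at least 7. The MT2A, MT1X and MT1H windows have 73.2%, 70.0% and 70.4% GC, and the 35114 windows were not matched for GC content. All 3 windows shown had a match on the gene strand between 54 and 47 bases before the start, and another on the opposite strand between 88 and 72 bases before it. The windows of MT1B and MT4, metallothionein genes outside the set, held 3 matches each, and 1.05% of all windows held at least 3. MT1B had matches at both places, while MT4 had no gene-strand match between 54 and 47 bases before its start. The SLC30A1 window held 1 match and the MTF1 window held 0. RefSeq and GENCODE 29 place some starts differently: the MT2A window and the end of the MT1X window lie within the genes as given above, since the GENCODE genes include transcripts that start further upstream. The SLC30A1 window (chromosome 1, 211579162 to 211579411, minus strand) lies upstream of the GENCODE start at 211578742. The bases next to that start were not searched. A match here describes the letters of the window and is not a measured binding site.

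**Figure D1:**
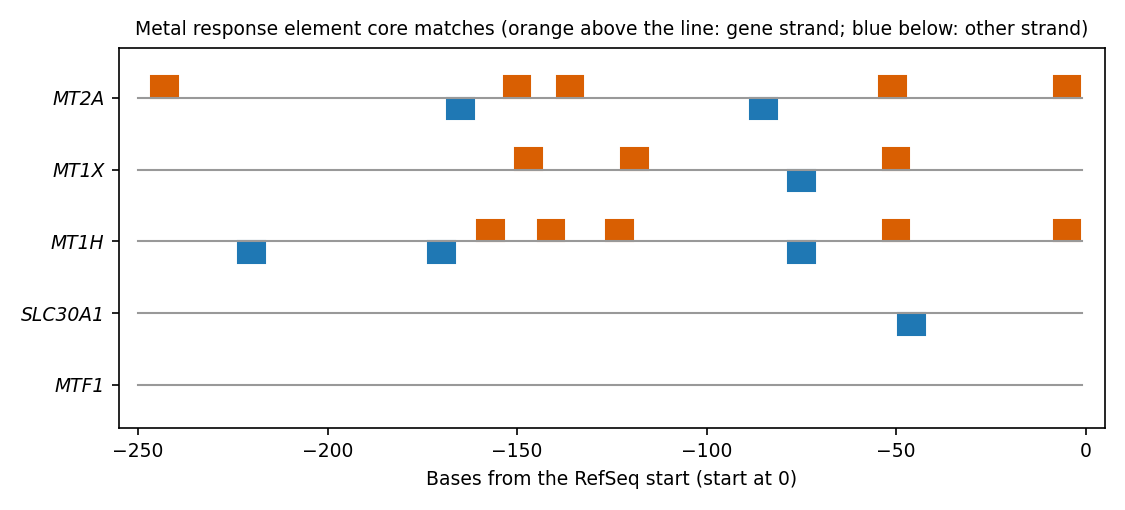
Positions of matches to the metal response element core in the 250 bases before the RefSeq start of 5 genes. The x axis is the distance in bases from the start, each block is 1 match of 7 bases, orange blocks above the line are on the gene strand and blue blocks below it on the other strand. MT2A has 7 blocks, MT1X 4, MT1H 8, SLC30A1 1 and MTF1 0.

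Expression is given in TPM, a share of each library scaled by transcript length, so levels can be compared between genes. MT2A was between 3462 and 5061 TPM and ranked between 19 and 33 among all genes of a library. MT1E followed at 715.91 to 1011 TPM, MT1X at 342 to 472 TPM, and MT1F at 35.9 to 52.3 TPM. The ranges of these 4 genes over the 6 libraries did not overlap. SLC39A14 was between 29.9 and 35.8 TPM, SLC30A1 between 4.69 and 5.73 TPM and MTF1 between 3.33 and 4.32 TPM, again without overlap among the 3. MT1H and MT1M were listed at 0 in all 6 libraries, and MT1G was listed at 0.22 TPM in Amuc_0904 replicate 1 and at 0 in the others. TPM keeps no read number, so the depth behind a 0 is unknown and a 0 here says only that the gene is listed at 0. The abundant members of the family in this line were thus MT2A, MT1E and MT1X.

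Genes with at least 1 TPM in at least 3 libraries were tested with limma on log2(TPM + 1), and a call is a Benjamini-Hochberg adjusted p under 0.05 over all 14421 tested genes. Of the 10 genes 7 were tested (MT1E, MT1F, MT1X, MT2A, SLC30A1, MTF1 and SLC39A14), 0 rose and 0 fell, while 1.37% of tested genes passed in either direction, 0.368% rose and 0.999% fell. Median centring of the libraries gave 43 genes that rose and 42 that fell over the whole table, in place of 53 and 144, and 0 of the set were called. At an unadjusted limma p under 0.05, 2 of the 7 were higher in treated cells (MT2A and MT1E) and 0 were lower, against 4.49% and 16.3% of tested genes. MT2A and MT1E lay above all buffer libraries in every treated library, as did 7.0% of tested genes, and MTF1 and SLC39A14 lay below them, as did 20.1% of tested genes. The median log2 fold change of the 7 was -0.07, and that of all tested genes was -0.06. In a bulk culture, fewer cells that express a gene and less of its RNA per cell cannot be told apart.

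MT2A encodes the most widely expressed human metallothionein. It was at 3462, 3993 and 3882.5 TPM in buffer replicates 1 to 3 and at 5027, 5061 and 4647 TPM in Amuc_0904 replicates 1 to 3. The lowest treated library was above the highest buffer library. The group means were 3779 ± 280.4 and 4912 ± 229.6 TPM (SD, 3 libraries per group), a ratio of 1.30. The fitted log2 fold change was 0.38 (SE 0.07, 95% confidence interval 0.21 to 0.55), with a limma adjusted p of 0.0509 that missed the threshold. MT2A passed it under 5 of 19 other settings, with adjusted p between 0.027 and 0.231 over all of them.

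MT1E, an MT1 isoform gene downstream of MT2A in the cluster, had a near-equal difference between groups. It was at 715.91, 737 and 813 TPM in buffer replicates 1 to 3 and at 1011, 1009.55 and 880.03 TPM in Amuc_0904 replicates 1 to 3. The groups did not overlap, and the treated library lowest for MT2A, replicate 3, was also the lowest for MT1E. The means were 755 ± 50.9 and 967 ± 75.2 TPM, a ratio of 1.28, with a log2 fold change of 0.35 (SE 0.08, 95% confidence interval 0.18 to 0.53, limma adjusted p = 0.061). MT1E passed under 3 of 19 other settings, and its adjusted p over them was between 0.039 and 0.216. Without Amuc_0904 replicate 3, its lowest treated library, its log2 fold change was 0.42 (limma adjusted p = 0.048). With any other library left out MT1E did not pass (limma adjusted p between 0.084 and 0.216).

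MT1X and MT1F did not separate the groups. MT1X was at 342, 371 and 413 TPM in buffer replicates 1 to 3 and at 433, 472 and 388 TPM in Amuc_0904 replicates 1 to 3, so treated replicate 3 lay within the buffer range. Its log2 fold change was 0.20 (SE 0.09, 95% confidence interval -0.01 to 0.41, limma adjusted p = 0.26). MT1F was at 41.6, 52.3 and 41.1 TPM in buffer and at 40.6, 49.9 and 35.9 TPM in treated replicates 1 to 3. Treated replicates 1 and 3 lay below the lowest buffer library, and replicate 2 lay within the buffer range. Its log2 fold change was -0.10 (SE 0.13, 95% confidence interval -0.40 to 0.21, limma adjusted p = 0.73), and its sign turned to positive in 3 of 19 other settings. The interval of MT1F does not reach the fitted value of MT2A or MT1E, while that of MT1X includes both. The difference between the genes was not tested.

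**Figure D2:**
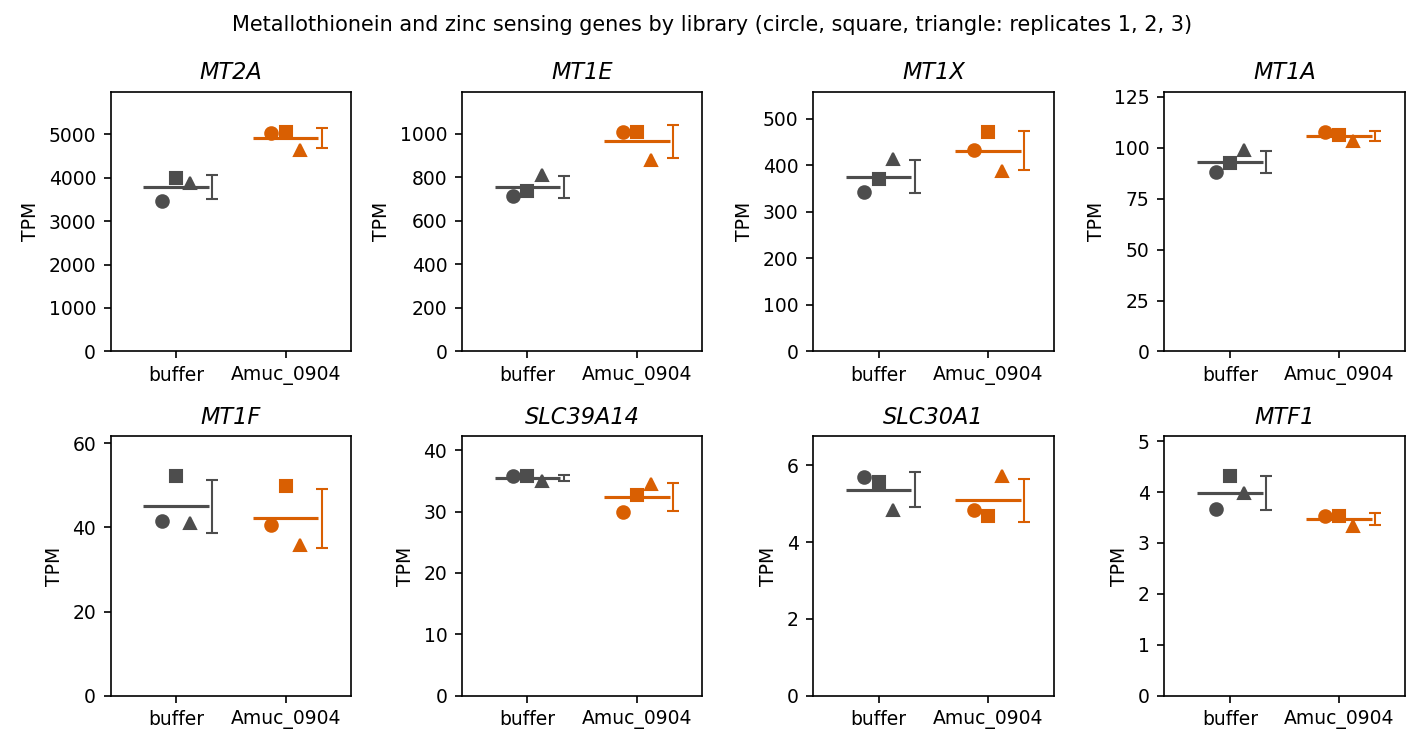
TPM by library for 8 genes, 1 panel per gene, with buffer libraries in grey and Amuc_0904 libraries in orange. Symbols mark replicates 1, 2 and 3, horizontal lines are group means and the bars beside them are SD, with each y axis starting at 0. MT2A runs from 3462 to 3993 TPM in buffer and from 4647 to 5061 TPM in treated libraries, while MT1F, MT1X and SLC30A1 overlap between groups.

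Of the metallothionein entries outside the set, MT1A, MT3, MT1JP, MT1DP, MT1B and MT1L were listed above 0 in at least 1 library. MT1A, an isoform gene outside the set, was at 88.0, 92.4 and 98.8 TPM in buffer and at 108, 106 and 103 TPM in treated replicates 1 to 3. The groups did not overlap, and its log2 fold change was 0.18 (SE 0.06, limma adjusted p = 0.15). MT3, the isoform best known from brain, was at 7.95 ± 0.671 and 6.99 ± 1.21 TPM, with overlap (log2 fold change -0.17, limma adjusted p = 0.51). The pseudogene MT1JP was at 0.54, 1.9 and 1.5 TPM in buffer and at 4.69, 5.38 and 2.94 TPM in treated replicates 1 to 3 (log2 fold change 1.23, SE 0.27, limma adjusted p = 0.064). Of the 50-base windows of the longest MT1JP transcript 5.5% also occur in another metallothionein transcript, MT1E among them, and the part of shared reads in its value was not tested.

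Summed over the 7 metallothionein genes of the set, buffer replicates 1 to 3 held 4561, 5154 and 5149 TPM and Amuc_0904 replicates 1 to 3 held 6512, 6592 and 5952 TPM. Every treated library held more than every buffer library. The ratio of its group means was 1.28 (log2 difference 0.36). As a share of all listed TPM, all metallothionein entries together held 0.508% ± 0.0348 in buffer and 0.649% ± 0.0345 in treated libraries. With any 1 library left out, the log2 difference of the summed TPM was between 0.30 and 0.41.

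In the sum over all metallothionein entries, the shares of MT2A and MT1E were close in both groups. MT2A held 73.8% to 75.9% of it in buffer and 75.4% to 76.5% in treated libraries, and MT1E held 14.02% to 15.5% and 14.5% to 15.2%. Both ranges overlap between groups. MT1X held 7.06% to 7.85% in buffer and 6.40% to 7.04% in treated libraries, and MT1F 0.781% to 0.994% and 0.591% to 0.744%. MT1A held 1.76% to 1.89% in buffer and 1.58% to 1.70% in treated libraries. The shares of MT1X, MT1F and MT1A were lower in all treated libraries, a difference that was not tested. Windows of 50 bases also found in another metallothionein transcript made up 4.7% of the longest MT2A transcript, 10.6% of MT1E, 1.3% of MT1X and 0.1% of MT1F. At 75 bases they made up 0.0%, 1.7%, 0.0% and 0.0%. Genes outside the family were not compared, so reads that MT1X shares with the overlapping AC026461.1 are not covered. Only identical windows were counted, on transcripts of 903, 729, 1727 and 1573 bases, and the shares in shorter transcripts were not computed. The read length is not given in the sources used here.

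**Figure D3:**
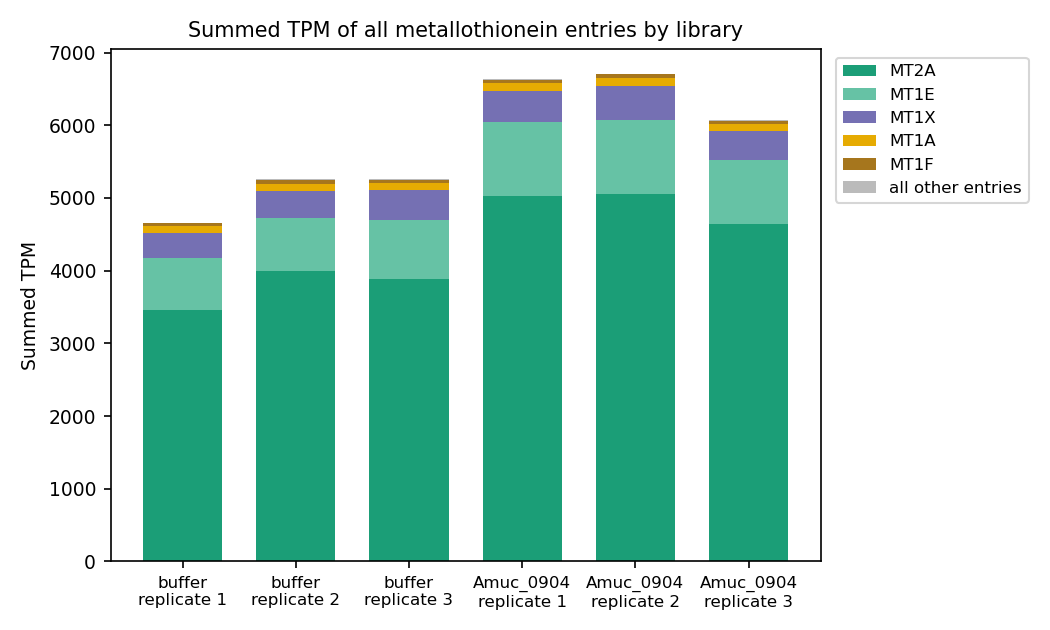
Summed TPM of all metallothionein entries in each library, with buffer libraries on the left and Amuc_0904 libraries on the right. Colours give the part of each gene, and MT2A makes up 73.8% to 76.5% of each bar. The 3 treated bars (6074 to 6710 TPM) are all above the 3 buffer bars (4658 to 5259 TPM).

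MTF1, the factor that senses zinc, was the least abundant of the tested genes of the set. It was at 3.66, 4.32 and 3.98 TPM in buffer and at 3.53, 3.54 and 3.33 TPM in Amuc_0904 replicates 1 to 3. The groups did not overlap, but the gap between the nearest libraries was smaller than the spread of the buffer libraries. The log2 fold change was -0.16 (SE 0.11, 95% confidence interval -0.42 to 0.11, limma adjusted p = 0.48).

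The zinc transporters of the set had fitted values below 0. SLC30A1, the exporter whose gene MTF1 controls, was at 5.70, 5.56 and 4.85 TPM in buffer and at 4.85, 4.69 and 5.73 TPM in treated replicates, and the treated libraries spanned the buffer range. Its log2 fold change was -0.07 (SE 0.12, 95% confidence interval -0.34 to 0.21, limma adjusted p = 0.79), and it turned positive in 3 of 19 other settings, such as centring each library on its median. The interval ends below the fitted values of MT2A and MT1E but overlaps the interval of MT1E (0.18 to 0.53). The scale understates the change of a gene at a few TPM, and the difference between the genes was not tested. SLC39A14 (ENSG00000104635), the importer known from inflammation, is annotated on chromosome 8, start 22367249 and end 22434129, where 1 gene of the opposite strand overlaps it. It was at 35.7, 35.8 and 35.0 TPM in buffer and at 29.9, 32.7 and 34.5 TPM in treated replicates. All treated libraries were below the buffer libraries, the nearest by less than 1 TPM, and the log2 fold change was -0.13 (SE 0.07, 95% confidence interval -0.30 to 0.04, limma adjusted p = 0.35).

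The other zinc transporter genes, of the exporter family SLC30 and the importer family SLC39, showed no call. Of 22 genes 17 were tested, 0 rose and 0 fell in limma, and at an unadjusted p under 0.05 there were 0 higher and 1 lower, against 4.49% and 16.3% of all tested genes. Their median log2 fold change was 0.01, beside -0.06 for all tested genes, with a range from -0.34 to 0.14. SLC39A1, an importer of the plasma membrane and the most abundant of them, was at 147 ± 1.35 and 148 ± 5.62 TPM (95% confidence interval of the log2 fold change -0.11 to 0.14). SLC39A7, which releases zinc from the endoplasmic reticulum and Golgi, was at 78.1 ± 3.28 and 70.6 ± 2.96 TPM (log2 fold change -0.15, limma adjusted p = 0.24). SLC30A3, named after its value was seen, was the lower one, at 2.99 ± 0.534 and 2.13 ± 0.137 TPM (limma adjusted p = 0.22). SLC30A8 and SLC39A12 were listed at 0 throughout.

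**Figure D4:**
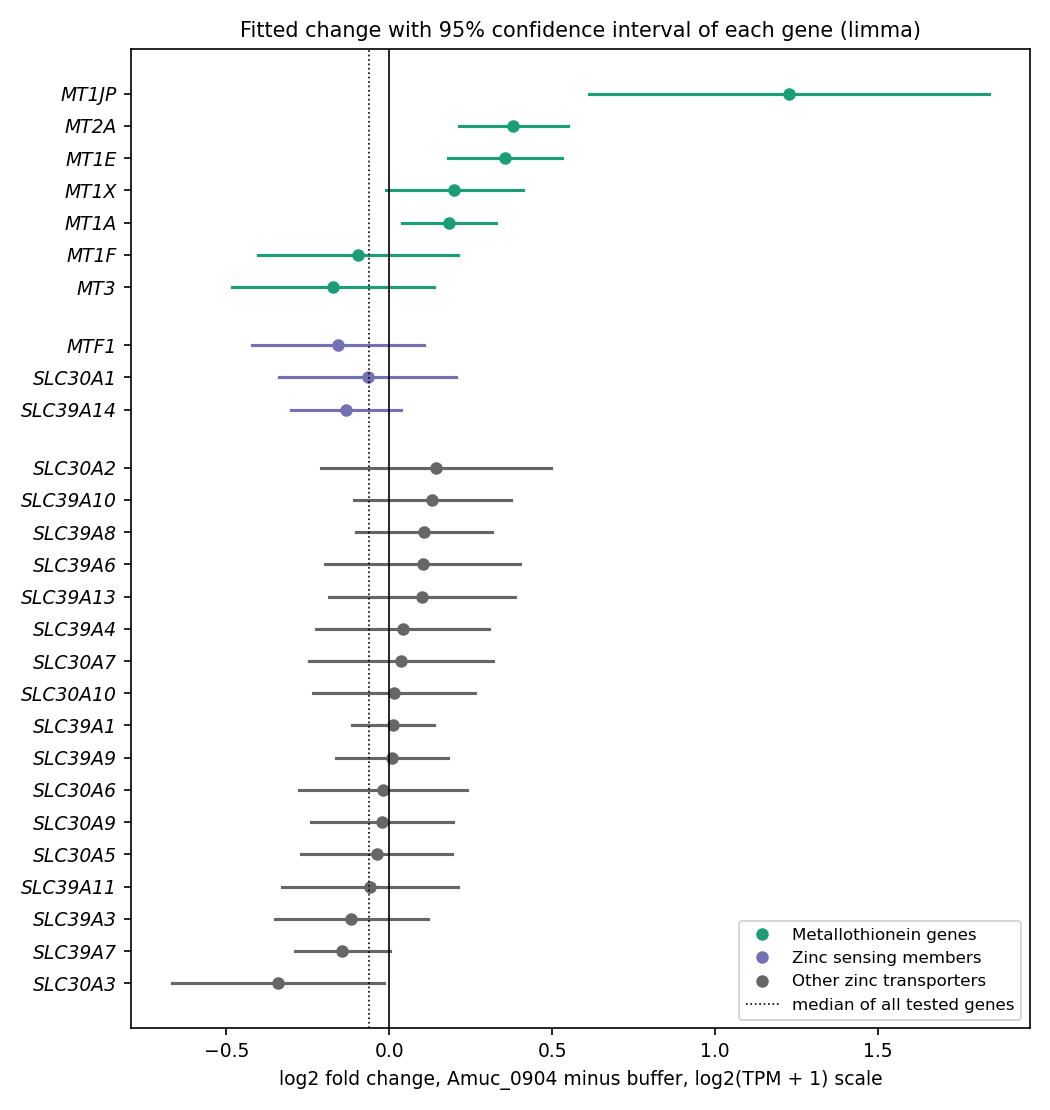
Fitted log2 fold change (Amuc_0904 minus buffer, log2(TPM + 1) scale) of each tested metallothionein gene, of MTF1, SLC30A1 and SLC39A14, and of 17 other zinc transporter genes. Points are limma estimates, lines are 95% confidence intervals and the dotted line is the median of all tested genes at -0.06. The intervals of MT2A, MT1E, MT1A and MT1JP lie above 0, while that of every zinc transporter except SLC30A3 includes it.

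Copper is the other physiological metal of metallothioneins. Of 14 copper handling genes 13 were tested, 0 rose and 0 fell in limma, with 1 higher and 1 lower at an unadjusted p under 0.05, against 4.49% and 16.3% of all tested genes, and a median log2 fold change of 0.08, beside -0.06 for all. SOD1, the copper and zinc superoxide dismutase, was at 508.9 ± 7.79 and 527 ± 26.6 TPM, and ATOX1, a cytosolic copper chaperone, at 361 ± 15.9 and 355 ± 39.2 TPM. The pair below an unadjusted p of 0.05, named after their values were seen, were both copper chaperones: COX17, which serves cytochrome c oxidase, was at 279 ± 24.4 and 326 ± 3.72 TPM, and CCS, which serves SOD1, at 45.1 ± 3.0 and 38.2 ± 0.872 TPM. Neither passed over all genes (limma adjusted p = 0.12 for both).

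Heat shock and oxidative stress genes often respond to metals together with metallothioneins. Of 12 such genes 11 were tested, 0 rose and 0 fell in limma, with 0 higher and 3 lower at an unadjusted p under 0.05, against 4.49% and 16.3% of all tested genes, and a median log2 fold change of -0.12, beside -0.06 for all. HSPB1, the small heat shock protein HSP27, was at 847, 982 and 980.32 TPM in buffer and at 687, 738 and 589 TPM in treated replicates 1 to 3. Its groups did not overlap, with the treated libraries lower (log2 fold change -0.48, SE 0.09, limma adjusted p = 0.053), the opposite direction to MT2A. It passed with the GC trend removed, with the length trend removed and with the filter at 5 TPM (log2 fold change between -0.34 and -0.52). The other 2 lower genes, named after their values were seen, were HSPA1A, the inducible HSP70 gene, at 97.5 ± 6.68 and 76.8 ± 7.02 TPM, and SRXN1, sulfiredoxin, at 41.6 ± 1.27 and 36.5 ± 0.350 TPM (limma adjusted p = 0.079 and 0.15). NQO1, a quinone reductase under the oxidative stress factor NRF2, was at 278 ± 5.06 and 280 ± 9.95 TPM (limma adjusted p = 0.95). HMOX1, heme oxygenase, a gene that cadmium and heme induce, was at 8.04 ± 0.660 and 7.20 ± 0.765 TPM (limma adjusted p = 0.50).

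Glucocorticoids are a further known inducer of MT2A. Of 10 genes known to respond to them 9 were tested, 0 rose and 0 fell in limma, with 1 higher and 2 lower at an unadjusted p under 0.05, against 4.49% and 16.3% of all tested genes, and a median log2 fold change of -0.04, beside -0.06 for all. CEBPD, a transcription factor also induced by cytokines, was at 53.6, 42.1 and 36.7 TPM in buffer and at 32.2, 27.5 and 27.9 TPM in treated replicates 1 to 3 (log2 fold change -0.57, limma adjusted p = 0.075). The groups did not overlap, and CEBPD passed with the filter at 5 TPM (limma adjusted p = 0.046). The other 2 genes below an unadjusted p of 0.05, named after their values were seen, went in opposite directions. SGK1, a serum- and glucocorticoid-induced kinase, was at 1.71, 1.1 and 1.62 TPM in buffer and at 2.75, 2.26 and 2.95 TPM in treated replicates 1 to 3, with all treated libraries higher (log2 fold change 0.57, limma adjusted p = 0.104). PER1, a gene of the circadian clock, was at 3.68, 6 and 5.56 TPM in buffer and at 3.58, 3.69 and 2.45 TPM in treated replicates 1 to 3, with overlap (log2 fold change -0.51, limma adjusted p = 0.18). ERRFI1, an inhibitor of EGF receptor signalling, was at 19.6 ± 1.27 and 20.1 ± 2.28 TPM. FKBP5, a chaperone of the glucocorticoid receptor, named after its value was seen, was at 18.7 ± 1.14 and 17.9 ± 1.70 TPM (limma adjusted p = 0.75). NR3C1, the gene of the receptor itself, was at 2.06 ± 0.261 and 1.99 ± 0.197 TPM (limma adjusted p = 0.91). Whether the receptor was active in these cells was not tested.

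The 5 genes whose profile over the 6 libraries was most like the summed TPM of the 7 metallothionein genes were HMGA2, LINC00623, GRAP, HLA-B and TNFRSF6B, out of 9804 genes with a mean of at least 5 TPM. As a description, their Pearson correlations of log2 values were 0.995, 0.990, 0.987, 0.987 and 0.984. Among the 9804 genes, 39 had a correlation over 0.95 and 84 had one under -0.95. The 6 libraries fall into 2 treatment groups, which all these profiles share. TNFRSF6B, which encodes a decoy receptor of the TNF receptor superfamily, was the single one past the threshold, at 59.1 ± 7.25 and 106 ± 16.3 TPM (log2 fold change 0.83, limma adjusted p = 0.027). HLA-B, an MHC class I gene that shares much sequence with its relatives, was at 300.2 ± 14.6 and 352 ± 17.9 TPM.

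Library traits moved with treatment and touch these values. Log2 expression changed per 10 percentage points of transcript GC content by 0.0737 to 0.162 in buffer libraries and by -0.0428 to 0.0713 in treated libraries, so the groups did not overlap in this slope. The longest transcripts of MT2A and MT1E have 53.9% and 53.5% GC, and those of MTF1, SLC39A14 and SLC30A1 have 46.7%, 47.7% and 38%. With the GC trend removed from each library, the difference of MT2A was as large (log2 fold change 0.42, limma adjusted p = 0.027), as was that of MT1E (0.39, limma adjusted p = 0.046), and 2 of 7 genes of the set then rose, while 0.504% of 14277 genes did. The log2 fold change was then -0.17 for SLC30A1, -0.20 for MTF1 and -0.16 for SLC39A14 (limma adjusted p = 0.38, 0.37 and 0.22). With the replicate block as well, 0 of the set passed (limma adjusted p = 0.098 for MT2A and 0.13 for MT1E). With the length trend removed in place of the GC trend, 0 of the set passed. The log2 fold change was then 0.33 for MT2A (limma adjusted p = 0.065) and 0.32 for MT1E (limma adjusted p = 0.059). Fewer genes reached 1 TPM in each treated library (14244 to 14420) than in each buffer library (14481 to 14586), and the part of this in the metallothionein values was not tested. Amuc_0904 replicate 3, the lowest treated library for MT2A, MT1E, MT1X and MT1F, had the highest share of mitochondrial transcripts, 12.8% of listed TPM against 9.86% to 11.5% in the other 5 libraries. Without it the log2 fold change was 0.42 for MT2A (limma adjusted p = 0.063), 0.27 for MT1X (0.16) and 0.0096 for MT1F (0.98), and that of MT1E is given above. Of 6 colorectal epithelial markers 5 were tested, and 0 rose and 0 fell in limma. At an unadjusted p under 0.05, 0 were higher and 3 lower, against 4.49% and 16.3% of all tested genes. For 4 of the 5 all treated libraries lay below the buffer libraries, as for 20.1% of tested genes. The 6 markers summed to 7900 to 8142 TPM in the buffer group and 7088 to 7377 TPM in the Amuc_0904 group. The part of this difference in the metallothionein values was not tested. The 4 leukocyte markers summed to 2.67 to 3.14 TPM in the buffer group and 4.24 to 4.57 TPM in the Amuc_0904 group, with CD68 at 1.10 to 1.68 and 2.33 to 3.11 TPM, while PTPRC, the defining leukocyte gene, was listed at 0 in all 6. The 4 fibroblast markers summed to 1.40 to 3.17 TPM and the 3 endothelial markers to 0.16 to 0.80 TPM over all libraries.

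**Figure D5:**
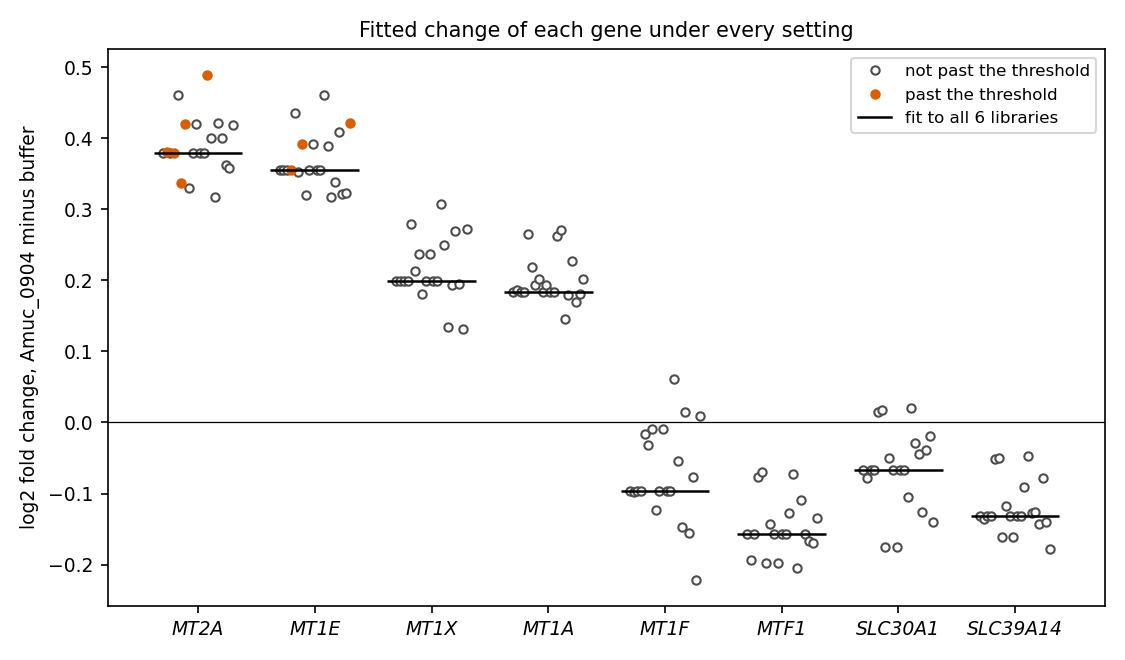
Fitted log2 fold change (Amuc_0904 minus buffer) of 8 genes in the fit to all 6 libraries (line) and under each other setting (points), with filled points past the adjusted p threshold of that setting. MT2A lies between 0.32 and 0.49 and MT1E between 0.32 and 0.46, while MT1F and SLC30A1 have points on both sides of 0.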

How the data were processed

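RNA from SW480 cells was sequenced on an Illumina NovaSeq instrument, per the series' design text. The authors deposited 1 table of gene TPM values quantified with RSEM, per the labels. HISAT2, StringTie and edgeR appear in the submitters' processing notes with neither version nor role, as does the mouse build GRCm38.p6. The identifiers are those of human Ensembl genes, which leaves the annotation used by the authors uncertain. Listed TPM summed to between 996107 and 997036 per library, read depth is unknown, and no counting interval is given.

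The fit used limma 3.58.1 (R 4.3.3; two-sided, with moderated variances that follow a mean-variance trend) on log2(TPM + 1) for genes with at least 1 TPM in at least 3 libraries, with no covariate. Log2 fold changes on this scale understate changes of low genes, and ratios are of group mean TPM. The longest GENCODE 29 transcript of each gene gave GC content and length, for 14277 tested genes (99.0%), and their trends were removed per library by loess with a span of 0.3. On simulated data with 14421 genes, the workflow recovered 8% of genes changed 1.25-fold, 69% of those changed 1.5-fold and 92% of those changed 2-fold. The changed genes had a mean of at least 5 TPM, so these rates do not cover lower genes such as MTF1. The simulated noise was normal and independent, with no GC trend of a library. Python 3.11.15 with matplotlib 3.10.9 drew the figures.

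The genes and lists were chosen with earlier results of these data known. In each other list the members past the threshold were named, or, with none, the 2 with the highest mean TPM. All metallothionein entries above 0 were named, as were the 5 genes with the highest correlation to the summed metallothionein TPM. HMOX1, FKBP5 and NR3C1 were added after their values were seen. SLC30A3, COX17, CCS, HSPA1A, SRXN1, SGK1 and PER1 were also added then, for an unadjusted limma p under 0.05.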

Additional observations from a re-analysis of the deposited data

How the results depend on the processing

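Called genes over the whole table numbered 197, and 9 with no filter on low TPM, 432 with the filter at 5 TPM, 85 with median centring, 102 with quantile normalization, 44 without the mean-variance trend, 29 at an adjusted p of 0.01, and 35 to 112 with 1 library left out. Of them 144 of 197 fell, against 42 of 85 with centring, 56 of 102 with quantile normalization, 354 of 432 at 5 TPM and 39 of 116 with GC removal and a common mean. Of the 7 tested genes of the set, 1 passed with a pseudocount of 0.1 or quantile normalization (MT2A), 2 with the filter at 5 TPM or the GC trend removed (MT2A and MT1E), and 0 to 1 with 1 library left out. MT2A kept a positive value in all 19 alternatives (0.32 to 0.49), as did MT1E (0.32 to 0.46), MT1X and MT1A. A fitted value cannot change with the filter, the replicate block, the mean-variance trend or the threshold, so those alternatives could not alter a sign. With the replicate number as a block, 80 genes were called and 0 of the set, and with the replicate block and GC removal 52 and 0. Same-numbered libraries did not deviate together (correlations -0.029, 0.075 and -0.094), so this is not read as a weaker effect. In alternatives chosen after seeing the data, all libraries were also set to a common mean: 116 genes were called after GC removal, with 1 of the set (MT2A), and 74 after length removal, with 0. MT1F ran from -0.2221 to 0.0143 with 1 library left out (positive without buffer replicate 2, and 0.0096 without Amuc_0904 replicate 3) and turned to 0.0609 with GC removal and a common mean. SLC30A1 turned to 0.0142 with centring, 0.0178 with quantile normalization and 0.0206 with length removal and a common mean. Among metal and stress genes, 1 was called with the filter at 5 TPM, with GC removal and with length removal (HSPB1), and 1 of the glucocorticoid list (CEBPD) with the filter at 5 TPM. The zinc transporters gave 0 calls in every alternative. With the filter at 5 TPM fewer genes were tested (10292), and with none more (30992); otherwise the cause was not tested. MTF1 falls below the filter at 5 TPM and has no value there. The unknown depth limits what a 0 or a gene at a few TPM, such as MTF1, can show.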

Other observations

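The metallothionein entries MT1DP, MT1L and MT1B were listed above 0 in 1 to 3 libraries each. The pseudogene MT1DP was listed at 3.75 TPM in buffer replicate 2 and at 8.34 TPM in Amuc_0904 replicate 3, and at 0 in the other 4 libraries. None of the 142 windows of 50 bases in its longest GENCODE 29 transcript occurs in another metallothionein transcript. MT1L was listed at 0.52 TPM in buffer replicate 2 and at 0 elsewhere. MT1B was listed at 0.56 TPM in buffer replicate 1, 0.22 TPM in Amuc_0904 replicate 2 and 0.30 TPM in Amuc_0904 replicate 3. With GC removal the difference of MT1JP was 1.29 on the log2 scale (limma adjusted p = 0.066), beside 1.23 without it.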
